A study of Mus musculus with 6 samples.

Results

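The EGF receptor family and its ligands were followed through the 6 arrays as a list of 10 genes. The list held the ligand genes Areg, Ereg, Hbegf, Tgfa, Epgn, Btc and Nrg1 and the receptor genes Egfr, Erbb2 and Erbb3. A gene entered with a probe set that the platform annotation pairs with its symbol alone. Of the 10 genes, 9 were measured, among 19938 genes tested in all, each with 1 probe set. Areg, the gene of amphiregulin, had no such probe set and was not analysed here. No filter on low values was applied, so each of the 9 was tested.

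The cells were keratinocytes, the epithelial cells of the epidermis, isolated from skin of C57BL/6 mice at E18.5. They grew in culture for 2 to 5 days, received calcium, which induces keratinocytes to differentiate, and grew for another 3 to 5 days. There were 3 groups of 2 arrays, and each array held RNA pooled from 2 mice. Control mice were Ovol2flox/+; Ovol1+/- or Ovol2flox/+;K14-Cre, so they carried a floxed Ovol2 allele together with a heterozygous loss of Ovol1 or with the Cre transgene. The Ovol1 KO group was Ovol1-/-, and its label names no Ovol2 allele and no Cre. The Ovol1/2 DKO group was Ovol2flox/-;K14-Cre; Ovol1-/-, so by this label an Ovol2 allele is missing in every cell. The floxed Ovol2 allele is removed only where the keratin 14 promoter drives Cre, that is in basal keratinocytes and their descendants. The comparisons ask how the absence of the zinc finger transcription factors Ovol1 alone, or Ovol1 and Ovol2 together, changes gene expression in these cultures. By these labels the groups also differ in the Cre transgene and in floxed or heterozygous alleles, so no comparison isolates a single gene.

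Some features of the arrays touch every comparison below. The keratinocyte markers Krt5 and Krt14 lay between 13.61 and 13.94 on the log2 intensity scale on all arrays. Of the 10 keratinocyte markers, Itgb4 fell by 0.79 in DKO against control (limma adjusted p = 0.03) and by 0.77 against Ovol1 KO (adjusted p = 0.04). The other 9 passed in neither, with 0.75 for Trp63 against control (adjusted p = 0.061). The arrays are labelled female, but Xist, the RNA that coats the inactive X chromosome, was at 4.71 and 4.65 in the control arrays and 4.59 in Ovol1 KO replicate 1. It was at 11.97 in Ovol1 KO replicate 2 and at 12.12 and 12.26 in the DKO arrays, and the Y-linked genes Kdm5d, Eif2s3y and Uty were split in the opposite way. The control and DKO groups were thus also split by sex-linked genes, and between them sex and genotype cannot be told apart. The summed intensity of 8 melanocyte markers, as log2, was 12.32, 12.72 and 10.87 in replicate 1 of the control, Ovol1 KO and DKO groups and 10.46, 10.55 and 10.08 in replicate 2. In control, Ovol1 KO and DKO, replicate 1 first, the summed level of 9 fibroblast markers was 11.26, 10.88, 11.22, 10.72, 11.74 and 12.12, that of 5 endothelial markers 10.82, 9.36, 10.39, 9.44, 8.56 and 8.51, and that of 3 Schwann cell markers 11.00, 10.96, 10.86, 10.91, 10.15 and 10.28. The sums of the DKO arrays were the highest for the fibroblast list and the lowest for the other 2 lists, but single genes carried them. Of the 9 fibroblast markers 6 had a log2 fold change above 0 in DKO against control and 3 below. Thy1 had 2.11 (limma adjusted p = 0.18) and Dcn 0.83 (adjusted p = 0.29). Pdgfra fell by 1.06 (adjusted p = 0.031), and Col1a1, Col1a2 and Col3a1 had 0.20, 0.12 and 0.18. Of the endothelial markers Kdr had -2.78 (adjusted p = 0.09) and Pecam1 -1.12 (adjusted p = 0.21), while Cdh5, Tek and Emcn had 0.09, -0.03 and 0.28. Of the Schwann cell markers Mbp fell by 1.15 (adjusted p = 0.015), while S100b and Cdh19 had 0.19 and 0.04. The part of these other cell types in the results was not tested. The targeted gene Ovol1 read 10.27 and 9.85 on the control arrays, 10.53 and 10.22 on those labelled Ovol1 KO and 10.58 and 10.59 on those labelled DKO, so its signal was not lower, and in DKO was highest, where the labels have it deleted. Ovol2 read 8.12 and 8.82 in control, 9.0 and 8.99 in Ovol1 KO and 8.71 and 8.32 in DKO, where it overlapped control. Whether these probe sets lie in the deleted parts is not known here, so they do not check the labels, and every direction below is between arrays as labelled.

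Ligands of this family are made as membrane-anchored precursors whose EGF-like domain is released by metalloproteases such as Adam17. Tgfa, Areg and Epgn act through Egfr, Hbegf, Btc and Ereg can also use Erbb4, and Nrg1 binds Erbb3 and Erbb4. Ligand binding makes the receptors pair and phosphorylate each other, which starts the Ras-MAP kinase and PI3 kinase cascades. Erbb2 has no known ligand of its own and serves as a partner for the other receptors, while Erbb3 has little kinase activity of its own. In epidermis, Egfr signalling fed by the keratinocytes' own ligands supports proliferation, migration and survival, restrains terminal differentiation and is needed for normal hair.

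The sequences upstream of Tgfa and Erbb2 are shown because these were the members that passed the test between DKO and control. A RefSeq promoter table of build GRCm38.p6 held 300-base windows, with 250 bases before and 50 after a gene's start, for 6 of the 10 members (Areg, Btc, Egfr, Epgn, Erbb2 and Tgfa). They were searched on both strands for CCGTTA, the core that Ovol proteins are known to bind, and for CACCTG, an E-box bound by the epithelial repressors of the Zeb and Snail families. These motifs do not overlap each other. CCGTTA was in 0 of the 6 windows and in 2.76% of all 32851 windows. CACCTG or its reverse complement was in 4 of the 6 (Areg, Btc, Epgn and Tgfa) and in 20.2% of all windows. A match describes the letters and is no evidence of binding. The Tgfa stretch, chr6:86194972-86195037 on the plus strand, is the part of the window upstream of the annotated gene, and its capitals mark the E-box in reverse complement at 86195025 to 86195030. The Erbb2 stretch, chr11:98412234-98412483 on the plus strand, has no capitals because it held neither motif.
Tgfa: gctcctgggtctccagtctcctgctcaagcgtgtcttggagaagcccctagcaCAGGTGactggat
Erbb2: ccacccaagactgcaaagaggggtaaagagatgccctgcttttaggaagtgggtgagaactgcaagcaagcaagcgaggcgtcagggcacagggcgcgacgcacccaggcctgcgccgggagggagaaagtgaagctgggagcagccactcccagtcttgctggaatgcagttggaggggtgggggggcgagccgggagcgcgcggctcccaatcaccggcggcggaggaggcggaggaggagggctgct

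Between DKO and control keratinocytes, the ligand gene Tgfa fell and the receptor gene Erbb2 rose, and the other 7 measured members did not pass. All 6 measured ligands had a lower mean in DKO than in control, as had 9120 of all 19938 genes, but only Tgfa passed. These 6 ligands also had a lower mean in Ovol1 KO than in control, where 0 passed. The genes of the ligand-binding receptors Egfr and Erbb3 had means within 0.20 log2 units of control. A gene was called at a limma adjusted p below 0.05, with p-values adjusted by the Benjamini-Hochberg method over all 19938 genes. Of these genes 3.2% were called in this comparison, 0.943% higher and 2.26% lower. An unadjusted limma p below 0.05 was reached by 4 of the 9 members and 2888 of all 19938 genes. The DKO and control arrays did not overlap for 6 of the 9 members (1 higher and 5 lower), and they did not overlap for 44.6% of all genes (23.1% higher and 21.5% lower). The median log2 fold change was -0.51 over the 9 members and 0.02 over all genes. In whole cultures, fewer cells of a type and less RNA per cell cannot be told apart.

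**Figure D1:**
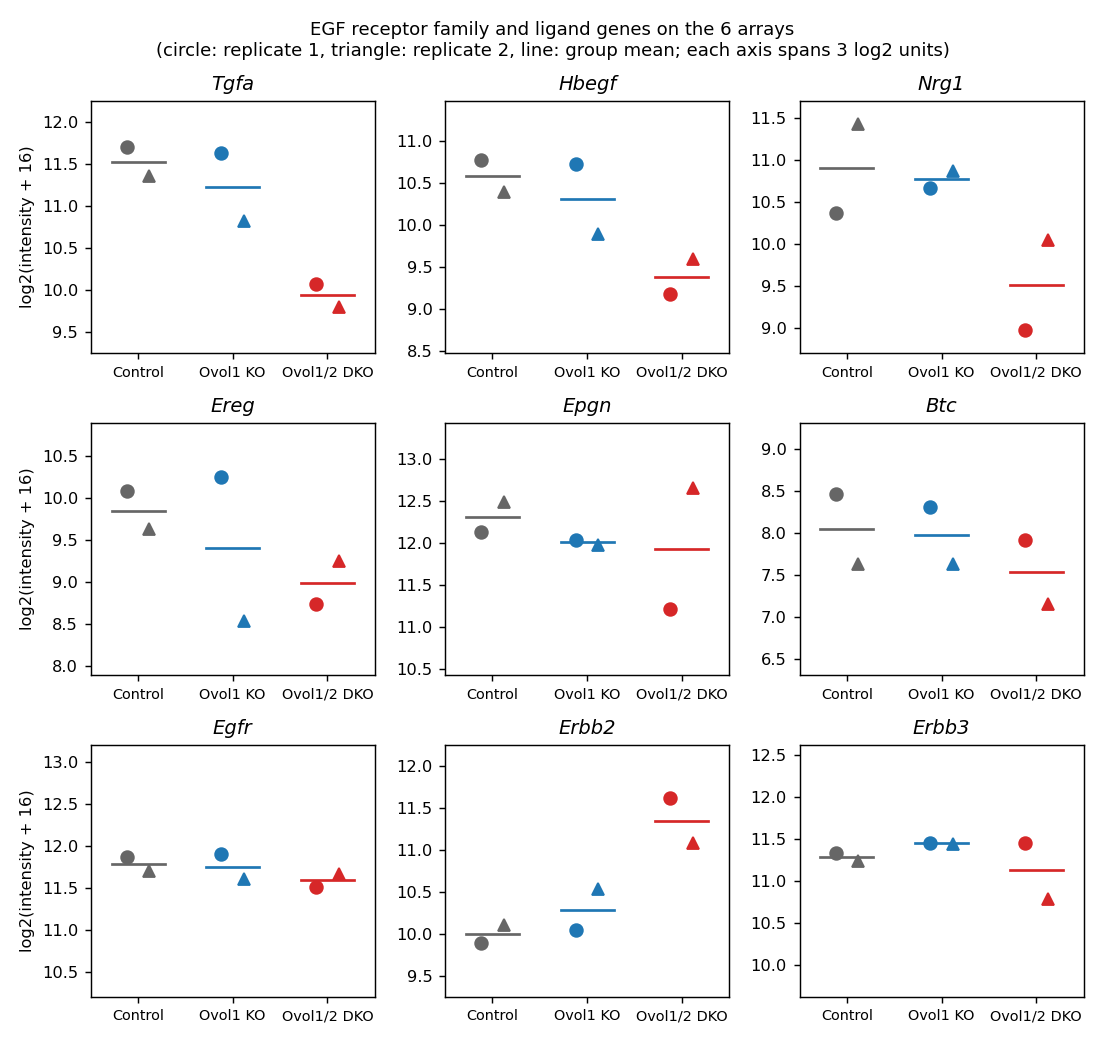
Level of each of the 9 measured genes as log2(intensity + 16) after quantile normalization, by group, with circles for replicate 1, triangles for replicate 2 and lines for group means; each vertical axis spans 3 log2 units. Tgfa lay between 11.36 and 11.71 in control and between 9.80 and 10.08 in DKO, and Erbb2 between 9.89 and 10.11 in control and between 11.09 and 11.62 in DKO.

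Tgfa, the gene of transforming growth factor alpha, lies at chr6:86195038-86275744 (GRCm38.p6). Its log2 intensity was 11.71 and 11.36 on the control arrays (replicate 1 first, here and below), 11.63 and 10.83 with Ovol1 KO, and 10.08 and 9.80 with DKO. The DKO arrays were the lowest, Ovol1 KO replicate 2 came between them and the rest, and the control and Ovol1 KO groups overlapped. The group means were 11.53 ± 0.25 (SD, n = 2) in control, 11.23 ± 0.56 with Ovol1 KO and 9.94 ± 0.20 in DKO. Tgfa was 3.01-fold lower in DKO than in control, a log2 fold change of -1.59 (SE 0.28, limma adjusted p = 0.033). The DKO to control difference was -1.63 within replicate 1 and -1.56 within replicate 2. Arrays of the same number are not known to be paired, so such differences, here and below, do not measure reproducibility. The call was lost without control replicate 1 (log2 fold change -1.42, adjusted p = 0.07), without DKO replicate 1 (-1.73, adjusted p = 0.13) and without DKO replicate 2 (-1.45, adjusted p = 0.16). With the Xist level as a covariate the log2 fold change of Tgfa was -0.78 (adjusted p = 0.78). That covariate rests almost wholly on the difference between the 2 Ovol1 KO arrays.

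Hbegf, the gene of heparin-binding EGF-like growth factor, a ligand of wounded and migrating keratinocytes, had log2 intensities of 10.78 and 10.40 in control, 10.73 and 9.89 in Ovol1 KO and 9.18 and 9.60 in DKO. The DKO arrays were the lowest of the 6, and Ovol1 KO replicate 2 was the next lowest. Hbegf did not pass, with a log2 fold change of -1.20 in DKO against control (SE 0.32, unadjusted p = 0.007, limma adjusted p = 0.12). Its unadjusted 95% interval ran from -1.95 to -0.45, and under the Xist covariate the value was -0.35 (adjusted p = 0.93). The order of the arrays thus resembled that of Tgfa, with a smaller difference within replicate 2 (-0.79) than within replicate 1 (-1.60).

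Nrg1, the gene of neuregulin 1, the Erbb3 and Erbb4 ligand of the list, lies at chr8:31807452-32891609. Its log2 intensities were 10.37 and 11.42 in control, 10.66 and 10.87 in Ovol1 KO and 8.98 and 10.04 in DKO. The DKO arrays were the lowest, but arrays of the same group lay far apart in both control (SD 0.74) and DKO (SD 0.75). Nrg1 had a log2 fold change of -1.39 in DKO against control (SE 0.43, limma adjusted p = 0.18), with -1.39 within replicate 1 and -1.38 within replicate 2. By the labels the number pairs no arrays, so the closeness of these within-replicate values is no sign of reproducibility. Without control replicate 1 the log2 fold change of Nrg1 was -1.91 and passed (adjusted p = 0.041), and without control replicate 2 it was -0.86.

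Epgn, Ereg, Areg and Btc lie next to each other on chr5:91027517-91402994, a stretch of 375 kb, so 3 of the measured ligands share a neighbourhood. None of these 3 passed, and each had its lowest value on a different array. Ereg, the gene of epiregulin, had log2 intensities of 10.08 and 9.63 in control, 10.25 and 8.54 in Ovol1 KO and 8.74 and 9.25 in DKO. Ovol1 KO replicate 2 was the lowest array for Ereg, below both DKO arrays, and Ovol1 KO replicate 1 the highest. Ereg had a log2 fold change in DKO against control of -0.86 (SE 0.53, limma adjusted p = 0.56), which turned to 0.87 once the Xist level was a covariate.

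Epgn, the gene of epigen, had log2 intensities of 12.13 and 12.49 in control, 12.04 and 11.98 in Ovol1 KO and 11.21 and 12.65 in DKO. The DKO arrays held its lowest and its highest value, a wider spread than in any other group of any measured member except the Ovol1 KO group for Ereg. Epgn had a log2 fold change of -0.38 (SE 0.41, limma adjusted p = 0.80), with -0.93 within replicate 1 and 0.17 within replicate 2. It was 0.34 without DKO replicate 1. Btc, the gene of betacellulin, had log2 intensities of 8.47 and 7.63 in control, 8.31 and 7.64 in Ovol1 KO and 7.92 and 7.16 in DKO. In each group replicate 1 of Btc was above replicate 2, and the groups overlapped. Its log2 fold change was -0.51 (SE 0.39, limma adjusted p = 0.67), which turned to 0.18 under the same covariate.

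Erbb2, the gene of the receptor without a known ligand, lies at chr11:98412484-98437716. Its log2 intensity was 9.89 and 10.11 in control, 10.05 and 10.54 in Ovol1 KO and 11.62 and 11.09 in DKO. The DKO arrays were the highest, Ovol1 KO replicate 2 came next, and the control and Ovol1 KO groups overlapped. The group means were 10.00 ± 0.16 (SD, n = 2) in control, 10.29 ± 0.35 with Ovol1 KO and 11.35 ± 0.37 in DKO. Erbb2 was 2.56-fold higher in DKO than in control, a log2 fold change of 1.35 (SE 0.25, limma adjusted p = 0.039). The difference was 1.73 within replicate 1 and 0.98 within replicate 2. With only the 4 arrays compared the call of Erbb2 was lost (limma adjusted p = 0.053). Without single arrays the log2 fold change of Erbb2 ran from 1.09 (without DKO replicate 1, adjusted p = 0.19) to 1.62 (without DKO replicate 2, adjusted p = 0.07). The call was also lost without control replicate 1 (adjusted p = 0.086), without either Ovol1 KO array (adjusted p = 0.053 each) and under the Xist covariate (log2 fold change 0.87, adjusted p = 0.81). It was kept without control replicate 2.

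Egfr, the gene of the receptor that binds most of these ligands, lies at chr11:16752203-16913907. Its log2 intensity was 11.87 and 11.70 in control, 11.90 and 11.61 in Ovol1 KO and 11.51 and 11.67 in DKO. The 6 values lay close together, and DKO replicate 2 was just below control replicate 2. Egfr had a log2 fold change in DKO against control of -0.20 (SE 0.15, limma adjusted p = 0.65), with an unadjusted 95% interval from -0.54 to 0.15. The change of Egfr was thus bounded more tightly than that of any other measured member.

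Erbb3, the gene of the neuregulin receptor with little kinase activity, lies at chr10:128567523-128589635. Its log2 intensity was 11.34 and 11.24 in control, 11.45 and 11.44 in Ovol1 KO and 11.46 and 10.79 in DKO. DKO replicate 2 was the lowest array, while DKO replicate 1 was the highest. Erbb3 had a log2 fold change of -0.17 (SE 0.22, limma adjusted p = 0.85), and it was 0.17 without DKO replicate 2. Erbb3 is also known in melanocytes and Schwann cells. The melanocyte gene Tyrp1 read 10.52 and 5.81 in control, 11.05 and 5.63 in Ovol1 KO and 8.46 and 5.72 in DKO. Tyrp1 had the widest split between replicates of the melanocyte markers. Tyr, Dct, Mlana, Pmel and Mitf were also higher in replicate 1 than in replicate 2 in each group. Dct read 9.75 and 5.28 in control, 10.44 and 5.28 in Ovol1 KO and 8.01 and 5.31 in DKO. Sox10 lay between 8.46 and 8.87 on all arrays. Kit read 8.07 and 7.70 in control, 8.60 and 8.58 in Ovol1 KO and 6.78 and 6.13 in DKO. The part of melanocytes in the Erbb3 values was not tested.

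**Figure D2:**
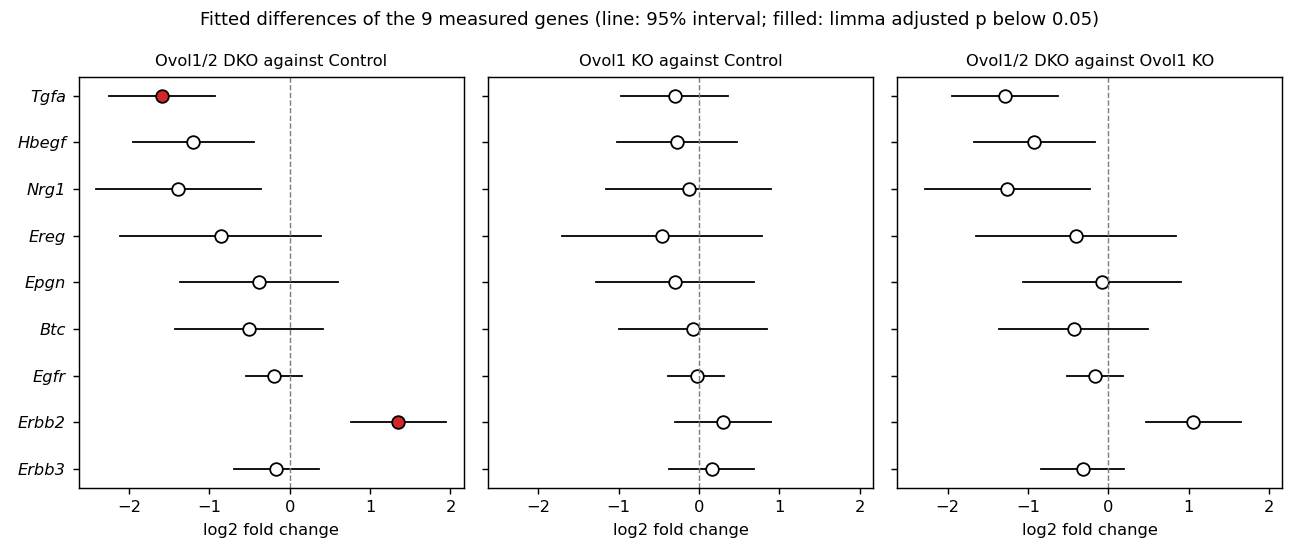
Fitted log2 fold change of the 9 measured genes in each of the 3 comparisons, with unadjusted 95% intervals as lines and filled points at a limma adjusted p below 0.05. Tgfa (-1.59) and Erbb2 (1.35) in DKO against control are the filled points, and the intervals of Hbegf and Nrg1 exclude 0 in that comparison although their adjusted p did not pass.

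Ovol1 KO against control asks about the absence of Ovol1, but the control mice carried a floxed Ovol2 allele and could carry Cre. In this comparison 0 of the 9 members and 0% of all 19938 genes passed in limma. An unadjusted p below 0.05 was reached by 0 members and 162 genes. The log2 fold change ran from -0.46 (Ereg) to 0.30 (Erbb2) over the members, with a median of -0.13 and an all-gene median of -0.06. The groups did not overlap for 2 members, Epgn (lower) and Erbb3 (higher), and for 24.1% of all genes (18.3% lower and 5.8% higher). The unadjusted 95% interval was -0.97 to 0.36 for Tgfa, -0.30 to 0.89 for Erbb2 and -0.38 to 0.31 for Egfr, so a 2-fold change of Tgfa or Erbb2 lay just outside it. Without Ovol1 KO replicate 2 the log2 fold change was 0.09 for Tgfa, 0.15 for Hbegf and 0.40 for Ereg, and for Erbb2 it was 0.05. The lower means of these 3 ligands in Ovol1 KO were thus carried by replicate 2, the Ovol1 KO array with Xist at 11.97.

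DKO against Ovol1 KO asks about the added absence of Ovol2, but of these 2 groups only the DKO label names Cre. In this comparison 0 of the 9 members passed in limma, against 2.15% of all genes (0.657% higher and 1.49% lower). An unadjusted limma p below 0.05 was reached by 4 of the 9 members and 2646 of all 19938 genes. Values were -1.29 on the log2 scale for Tgfa (SE 0.28, limma adjusted p = 0.081), -1.26 for Nrg1 (SE 0.43, adjusted p = 0.27), -0.92 for Hbegf (SE 0.32, adjusted p = 0.27) and 1.06 for Erbb2 (SE 0.25, adjusted p = 0.11). For these 4 genes the DKO and Ovol1 KO arrays did not overlap (Erbb2 higher, the others lower), as for 42.2% of all genes (26.1% higher and 16% lower). The intervals were -1.95 to -0.62 for Tgfa and 0.47 to 1.65 for Erbb2. Against Ovol1 KO replicate 2 alone, which shares the Xist level of the DKO arrays and was assumed to vary like the other groups, the log2 fold change of Tgfa was -0.89 (adjusted p = 0.37) and that of Erbb2 was 0.81. Tgfa passed without Ovol1 KO replicate 2 (-1.68, adjusted p = 0.049), without control replicate 1 (-1.29, adjusted p = 0.032) and without control replicate 2 (-1.29, adjusted p = 0.03). The DKO against control and DKO against Ovol1 KO values share the DKO arrays, and both comparisons with control share the control arrays, so they are not independent of each other.

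**Figure D3:**
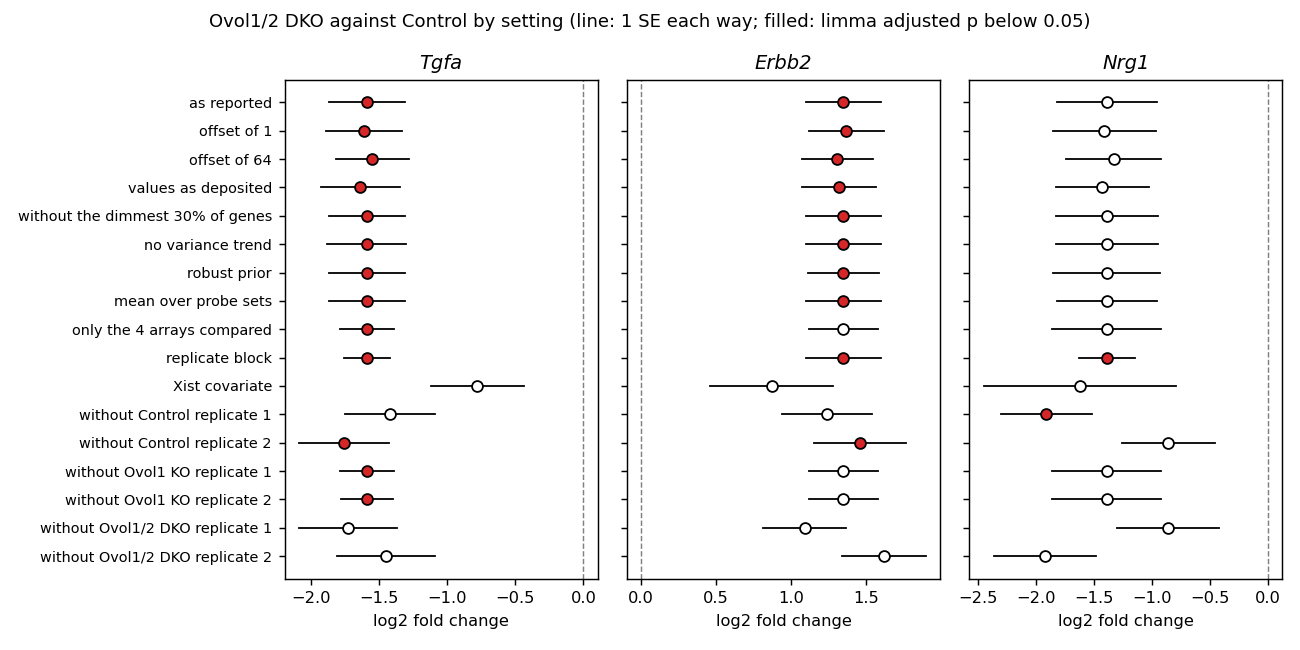
Log2 fold change of Tgfa, Erbb2 and Nrg1 in DKO against control as reported and under each alternative setting, with lines of 1 SE each way and filled points at a limma adjusted p below 0.05. Tgfa stayed below 0 and Erbb2 above 0 in all settings shown, and the smallest values of both were those under the Xist covariate (-0.78 and 0.87).

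The genes nearest to Tgfa and Erbb2 over the 6 arrays were found by the root mean square difference of log2 values after each gene's own mean was subtracted. For Tgfa they were Epn3, an epithelial member of the epsin family of endocytic adaptors (difference 0.082), Strbp, an RNA-binding protein gene (0.093), and Cpeb4, a cytoplasmic polyadenylation factor gene (0.095). Their log2 fold changes in DKO against control were -1.71, -1.42 and -1.61, with limma adjusted p-values of 0.024, 0.031 and 0.065. Strbp has 2 probe sets, and the brighter one was used. For Erbb2 the nearest were Fzd10, a Wnt receptor gene (0.094), Tmem131l (0.095) and Sptssa, a small subunit gene of serine palmitoyltransferase (0.096). Their log2 fold changes were 1.32, 1.21 and 1.41, with limma adjusted p-values of 0.029, 0.045 and 0.019. The likeness holds for these 6 arrays, which also share their split in Xist. The genes were chosen for this likeness, so their fold changes and p-values follow from the choice and add no support.

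**Figure D4:**
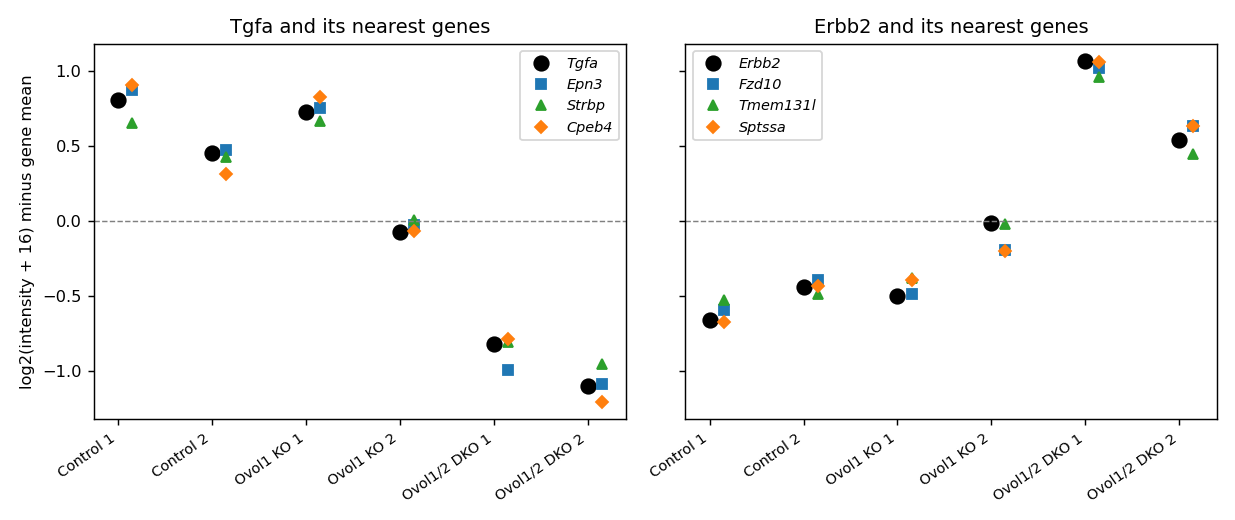
Log2(intensity + 16) minus the gene's mean over the 6 arrays for Tgfa, Erbb2 and the 3 genes nearest to each. Ovol1 KO replicate 2 lies between the DKO arrays and the other arrays in both panels.

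Further genes of the pathway were taken from 8 lists of ligand processing, receptor control and downstream signalling. Of their 87 genes 79 were measured. In DKO against control 0 rose and 3 fell (Adam12, Eps8 and Phlda1), and 76 did not pass, with a median log2 fold change of -0.05. Over all genes 3.2% were called (2.26% lower), so the count of 3 of 79 lies near the background. Without control replicate 1, either Ovol1 KO array or DKO replicate 1 the count was 1, and without control replicate 2 it was 7. In DKO against Ovol1 KO 0 rose and 2 fell (Eps8 and Phlda1), against 2.15% called over all genes, which is also near the background. In Ovol1 KO against control 0 of the 79 passed in limma, with 1 at an unadjusted p below 0.05.

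Of 5 other ligand and receptor genes (Egf, Nrg2, Nrg3, Nrg4 and Erbb4) 0 passed. Nrg2, a neuregulin gene, had log2 intensities of 9.14 and 9.80 in control and 8.25 and 8.33 in DKO, a log2 fold change of -1.18 (SE 0.30, limma adjusted p = 0.10), and Nrg4 had 0.50 (adjusted p = 0.18). The sign of Nrg2 was that of Nrg1, and neither passed. Erbb4, the remaining receptor, had a log2 fold change of -0.05 (adjusted p = 0.95). Erbb4 lay between 6.92 and 7.15 on the 6 arrays and Nrg4 between 6.04 and 6.77, dim levels that may lie at background.

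Of 7 genes of ligand shedding, 1 fell and 6 did not pass. Adam12, a membrane metalloprotease gene whose product can release Hbegf, had log2 intensities of 10.40 and 9.40 in control, 10.24 and 9.06 in Ovol1 KO and 7.57 and 6.32 in DKO. Replicate 1 was above replicate 2 in each group, and the DKO arrays were below all others. Adam12 had a log2 fold change in DKO against control of -2.95 (SE 0.56, limma adjusted p = 0.043). Adam12 lost its call without any single array other than control replicate 2, with adjusted p-values up to 0.18. It was also lost with no variance trend (adjusted p = 0.054), a robust prior (0.082), only the 4 arrays compared (0.055) and the Xist covariate (-1.74, adjusted p = 0.83). Compared with Ovol1 KO, Adam12 had -2.71 (limma adjusted p = 0.07), which passed without either control array (0.013 each). Adam17, the main ligand sheddase, had a log2 fold change of 0.32 (adjusted p = 0.42), and Adam10, the main sheddase of Btc, had 0.58 (adjusted p = 0.074).

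Of 12 genes that restrain the receptors 0 passed. Cblc, an epithelial ubiquitin ligase gene of the Cbl family, had the smallest p, with 10.26 and 10.52 in control and 9.39 and 8.73 in DKO and a log2 fold change of -1.33 (SE 0.27, limma adjusted p = 0.051). Lrig3, a gene of the Lrig family, had 0.90 (adjusted p = 0.13). The induced receptor inhibitor gene Errfi1 lay between 12.78 and 12.99 on all 6 arrays. In this list the DKO arrays were above both control arrays for 7 genes and below them for 3, and over all genes this held for 23.1% and 21.5%.

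The intracellular lists held few calls. Of 13 adaptor and kinase genes 0 passed. Shc1, an adaptor gene, had a log2 fold change of 0.98 (SE 0.20, limma adjusted p = 0.057), and Stat3, a transcription factor gene activated by these receptors, had 0.52 (adjusted p = 0.11). Of 12 Ras and MAP kinase genes 6 were measured and 0 passed, with -0.54 for Braf (adjusted p = 0.24) and 0.29 for Araf (adjusted p = 0.42), both Raf kinase genes. Of 11 PI3 kinase and Akt genes 9 were measured and 0 passed, with -1.32 for the catalytic subunit gene Pik3cb (adjusted p = 0.071) and 0.93 for the regulatory subunit gene Pik3r1 (adjusted p = 0.31).

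Of 11 genes of receptor endocytosis 1 fell and 10 did not pass. Eps8, a receptor kinase substrate that links Egfr to actin and Rac, had log2 intensities of 9.77 and 9.69 in control, 9.87 and 9.58 in Ovol1 KO and 8.37 and 7.39 in DKO. The control and Ovol1 KO arrays lay together and the DKO arrays below them. Its log2 fold change was -1.85 against control (SE 0.32, limma adjusted p = 0.033). Compared with Ovol1 KO it was -1.84 (SE 0.32, limma adjusted p = 0.043). The control call of Eps8 was lost without control replicate 1 (adjusted p = 0.063), DKO replicate 2 (0.075) or either Ovol1 KO array (0.068 and 0.067). The Ovol1 KO call was lost without DKO replicate 2 (0.09) or either Ovol1 KO array (0.31 and 0.11). With only the 4 arrays compared the control call was lost as well (0.068), and the Xist covariate ended both, with -1.53 against control (adjusted p = 0.74) and -1.68 against Ovol1 KO (adjusted p = 0.36).

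Of 16 growth factor induced genes 1 fell and 15 did not pass. Phlda1, a pleckstrin homology domain gene induced by growth factors, had log2 intensities of 11.05 and 10.83 in control, 10.91 and 9.95 in Ovol1 KO and 8.04 and 8.43 in DKO. As for Tgfa, Ovol1 KO replicate 2 lay between the DKO arrays and the rest. Phlda1 had a log2 fold change of -2.70 against control (SE 0.33, limma adjusted p = 0.0093). Compared with Ovol1 KO it was -2.19 (SE 0.33, limma adjusted p = 0.025). Its control call was lost without DKO replicate 1 (-2.50, adjusted p = 0.067). Its Ovol1 KO call was lost without Ovol1 KO replicate 1 (adjusted p = 0.11), DKO replicate 1 (0.14) or DKO replicate 2 (0.085). Under the Xist covariate Phlda1 had -1.73 against control (adjusted p = 0.46) and -1.68 against Ovol1 KO (adjusted p = 0.14). Of the 16 values 10 were below 0 and 6 above, with a median of -0.28. The DKO arrays lay below both control arrays for 8 genes and above them for 2, against 21.5% and 23.1% of all genes. Among the genes that did not pass, chosen after their values were seen, Ptgs2 had -2.19 (adjusted p = 0.10), Maff -2.15 (0.081), Ier3 -1.35 (0.17), Atf3 -1.33 (0.35) and Fosl1 -1.09 (0.62). Smaller negative values were -0.59 for Fosb (limma adjusted p = 0.21) and -0.43 for Ccnd1 (0.13). At the other end Egr3 had 0.83 (adjusted p = 0.19) and Myc 0.34 (0.40), with 0.11 for Fos (0.91) and 0.09 for Egr1 (0.96). The DKO arrays read 9.99 and 11.86 for Ptgs2, 10.25 and 11.57 for Ier3 and 7.89 and 9.55 for Atf3. Replicate 1 thus carried most of the difference of these genes, while Maff read 7.57 and 6.92 in DKO. The control arrays of Fosl1 lay far apart, at 10.60 and 9.15.

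**Figure D5:**
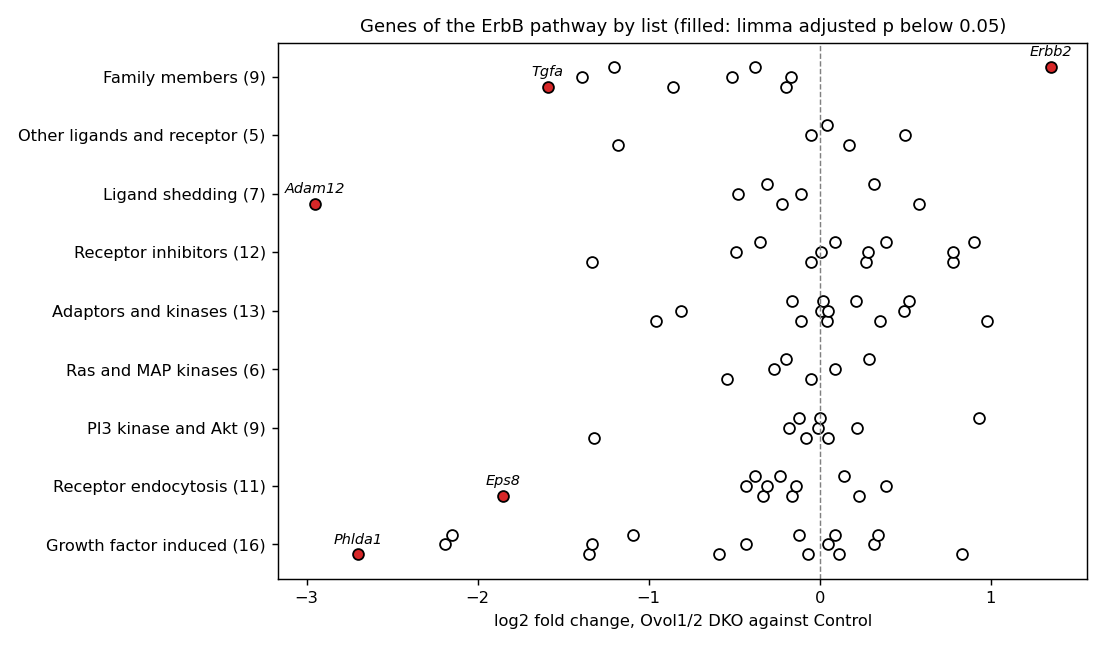
Log2 fold change in DKO against control of the 9 measured members and of the 79 measured genes of the 8 further lists, with the number measured in brackets and filled points at a limma adjusted p below 0.05. Adam12, Eps8 and Phlda1 are the filled points outside the family, all below 0.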

How the data were processed

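Values came from 6 Affymetrix whole-transcript arrays in 3 groups of 2, described as biological replicates in the labels. The authors deposited linear intensity values, 1 per probe set and array. Per the submitters' processing notes, Affymetrix Expression Console 1.1.1 and PLIER 2.0 were named, with no role. How background was corrected and whether arrays were normalized is not given in the sources used here. There were 35556 probe sets, array medians from 174.2 to 203.6 and no detection calls, so dim genes may lie at background. The number of arrays limits the precision.

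The intensities plus 16 were log2-transformed and quantile-normalized, and a fold change on this log2(intensity + 16) scale understates the change of a dim gene. Probe sets with 1 symbol (21789) were used, 1621 with several and 12146 with none were left out, and the brightest stood for a gene. RefSeq GRCm38.p6 matched 19855 of 19938 genes by Entrez identifier.

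A limma 3.58.1 model (R 4.3.3) with a mean per group and an eBayes variance trend was fitted over all arrays. Spread was pooled over the groups, with 3 residual and 3.894 prior degrees of freedom, so an adjusted p does not rest on the compared arrays alone. The procedure was run on simulated data with independent noise per gene, without a sex split or deviations shared between arrays. That run therefore does not check the calls against these features of the arrays. Members, gene lists and tests were chosen with earlier results of these data known. Named were all members, every called gene of each list or otherwise up to 2 with the smallest p, and the 3 nearest genes of each called member. Adam10, Adam17, Erbb4, Errfi1 and the growth factor induced genes other than Phlda1 were named outside this rule after their values were seen. Alternatives were offsets of 1 and 64, values as deposited, no dimmest 30% of genes, other eBayes settings, probe set means, only the 4 arrays compared, a replicate block, an Xist covariate and single arrays left out.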

Additional observations from a re-analysis of the deposited data

How the results depend on the processing

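With 2 arrays per group, calls near the threshold depended on single arrays. In DKO against control, 639 genes were called, and 1069 with the replicate number as a block, 8 under an Xist covariate, and from 258 (without DKO replicate 1) to 735 with single arrays left out. The count of members called there was 2; it was 1 with only the 4 arrays compared, 0 with the Xist covariate and 0 to 2 with single arrays left out. In DKO against Ovol1 KO, 429 genes were called, and 738 with only the 4 arrays compared, 805 with the replicate block, 73 with the Xist covariate and 88 to 738 with single arrays left out. Members called there were 0, but 1 (Tgfa) with only the 4 arrays compared, 1 with the replicate block and 0 to 1 with single arrays left out. In Ovol1 KO against control 0 genes were called, and 0 to 4 with single arrays left out. The Xist covariate reversed the sign of values that had not passed: in Ovol1 KO against control Btc 0.25, Egfr 0.11, Ereg 0.37, Hbegf 0.13 and Tgfa 0.08; in DKO against control Btc 0.18, Egfr 0.10 and Ereg 0.87; in DKO against Ovol1 KO Ereg 0.50. As said for Tgfa, that covariate rests almost wholly on the difference between the 2 Ovol1 KO arrays. What lies behind that difference was not tested.

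Leaving out single arrays also turned values that had not passed. In Ovol1 KO against control the ranges were -0.50 to 0.34 for Btc, -0.18 to 0.11 for Egfr, -1.31 to 0.40 for Ereg, -0.70 to 0.15 for Hbegf, -0.66 to 0.39 for Nrg1 and -0.70 to 0.09 for Tgfa. In DKO against control they were -1.10 to 0.34 for Epgn and -0.50 to 0.17 for Erbb3, and in DKO against Ovol1 KO -0.81 to 0.64 for Epgn, -0.66 to 0.01 for Erbb3 and -1.26 to 0.46 for Ereg. Offsets, values as deposited, eBayes settings, the filter on dim genes and probe set means turned no member's sign and changed no member's call. The calls of the further lists (3 and 2) were also recomputed, a step chosen after seeing the data, and ranged over all alternatives from 0 to 7 and from 0 to 6.

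Same-numbered arrays deviated together by correlations of 0.687 (Ovol1 KO and control), 0.151 (DKO and control) and 0.087 (DKO and Ovol1 KO), and the labels give the number no shared litter or day, so it only names a replicate. With the replicate block Tgfa passed in DKO against Ovol1 KO (adjusted p = 0.018) and Nrg1 in DKO against control (-1.39, adjusted p = 0.035), and no member's call was lost. Arrays without detection calls set no lower limit on dim levels such as those of Btc, Adam12, Nrg4 and Erbb4.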
